A study of Mus musculus with 4 samples.

Results

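The genes described here are 10 readers and erasers of N6-methyladenosine (m6A), taken by symbol from a ribosome profiling table of 10327 genes. All 10 were present: Ythdf1, Ythdf2, Ythdf3, Ythdc1, Ythdc2, Igf2bp2, Fxr1, Fmr1, Fto and Alkbh5. Ribosome profiling sequences the mRNA fragments that ribosomes protect from nuclease (footprints), so that a gene's value mixes its mRNA level with the density of ribosomes on it. The 4 libraries were made from epidermal keratinocytes of newborn mice at postnatal day 0. Of these, 2 came from conditional knockout mice (cKO, genotype K14Cre,Mettl14F/F) and 2 from control mice (Ctrl, genotype K14Cre,Mettl14F/+). Both groups thus carried the K14-driven Cre, which is active in basal keratinocytes and their progeny, and the Ctrl mice were heterozygous for the floxed Mettl14 allele. No other treatment was given. Whether replicate libraries stem from separate or pooled animals is not in the labels, so p-values measure only the spread between these libraries, which may be technical.

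m6A is written on mRNA by a complex built around METTL3 and METTL14. Readers bind the mark or the RNA around it, and erasers remove it by oxidation. The readers fall into several families: the cytoplasmic YTHDF proteins, which include factors of mRNA decay, the YTHDC proteins, the IGF2BP proteins, which stabilise their targets, and the FMRP family of ribosome-associated RNA-binding proteins, proposed as readers. Setting cKO against Ctrl compares footprint levels between the genotypes, here for the genes whose proteins act on the mark.

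Footprints of 25 to 35 nt have to be told apart between paralogs, so the coding sequences of the GENCODE M21 annotation (GRCm38) were compared. The longest runs of identical bases between paralogs are shown because they are all shorter than the shortest footprint selected, 25 nt.
Ythdf1 and Ythdf2, 22 bases: attgctagcaagcctgcaaaac
Ythdf1 and Ythdf3, 17 bases: aagagctattctgagga
Ythdf2 and Ythdf3, 17 bases: atattggaacttgggat
Fxr1 and Fxr2, 20 bases: gaaggagatgaagtagaggt
Fxr1 and Fmr1, 14 bases: gaaacagaatctga

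No 28-base window of the Ythdf1, Ythdf3, Igf2bp2, Fto or Alkbh5 coding sequence occurred in a transcript of another gene. For Ythdf2, 642 of 1710 windows (37.5%) occurred in the processed pseudogenes Gm6823 or Gm8401, and for Fxr1 116 of 2004 windows (5.79%) occurred in the processed pseudogene Gm17795. For Ythdc1, 613 of 2181 windows (28.1%) were shared, nearly all with the overlapping lincRNA Gm43055 on the same strand. None of these 4 genes is among the 10327 in the table. Ythdc2 shared 5 windows with Arih1, which is in the table, and Fmr1 shared 2 with Il27, which is not. Windows shorter than 28 bases were not searched. Exons of Fxr1 also overlap those of Dnajc19 on the opposite strand over 178 bases, all coding in Fxr1. Those of Fto overlap 4831440D22Rik over 144 bases and Gm45427 over 304, also on the opposite strand. Of these, 144 and 129 bases are coding in Fto. Exons of Fmr1 overlap Gm27838 outside its coding sequence. Whether such reads were counted is not given in the sources used here, so the levels of Ythdf2, Ythdc1 and Fxr1 are less certain than those of the others.

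The table held 542074 reads in cKO 1, 751948 in cKO 2, 933574 in Ctrl 1 and 624167 in Ctrl 2, recovered from values in CPM (a gene's reads per 1000000 reads of the library). Mettl14, the targeted gene, had 5 and 4 reads in the cKO libraries against 26 and 17 in the Ctrl libraries, a log2 change of -1.83 that did not pass limma (adjusted p = 0.122). Markers of keratinocytes were abundant, with the 7 basal markers summing to between 10423 and 11892 CPM in cKO and between 20999 and 23297 CPM in Ctrl. The 7 suprabasal markers summed to between 184077 and 195364 CPM in cKO and between 124113 and 135114 CPM in Ctrl. The 8 fibroblast markers summed to 1636 and 1108 CPM in cKO 1 and 2, against 4008 and 2438 CPM in Ctrl 1 and 2. Red blood cell markers stood at 526 CPM in cKO 1, against 80.1 to 120.0 CPM in the other libraries, and none of 5 endothelial markers was among the genes listed. By limma 1 of 7 basal markers (Krt5) and 3 of 8 fibroblast markers (among them Dcn and Sparc) fell, where 0.3% of all genes did. Of the 7 suprabasal markers 1 (Ivl) rose, where 0.368% of all genes did. No red blood cell or melanocyte marker passed, nor did any of the 5 leukocyte markers measured. The leukocyte markers Cd207, Cd3g and Lyz2 were not among the genes listed.

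Among the 10 genes, 1 was lower in cKO, Fxr1, none was higher, and 9 did not pass the test. The test was limma on log2(CPM + 1) over all 10327 genes, and a call needed a Benjamini-Hochberg adjusted p under 0.05. Of all genes, 0.668% were called, with 31 genes (0.3%) lower and 38 (0.368%) higher. With edgeR and TMM on the recovered reads, no member was called, against 1.7% of all genes. The members' log2 changes were negative in 7 and positive in 3, with a median of -0.27, and the median over all genes was -0.245. Relative to that median, 5 members lay below and 5 above, and single members ran from -1.39 to 0.40. The cKO libraries were both below the Ctrl libraries for 4 members (34.1% of all genes) and both above them for 2 members (11.1% of all genes). In such bulk samples, fewer cells of a type and less RNA per cell cannot be told apart.

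**Figure D1:**
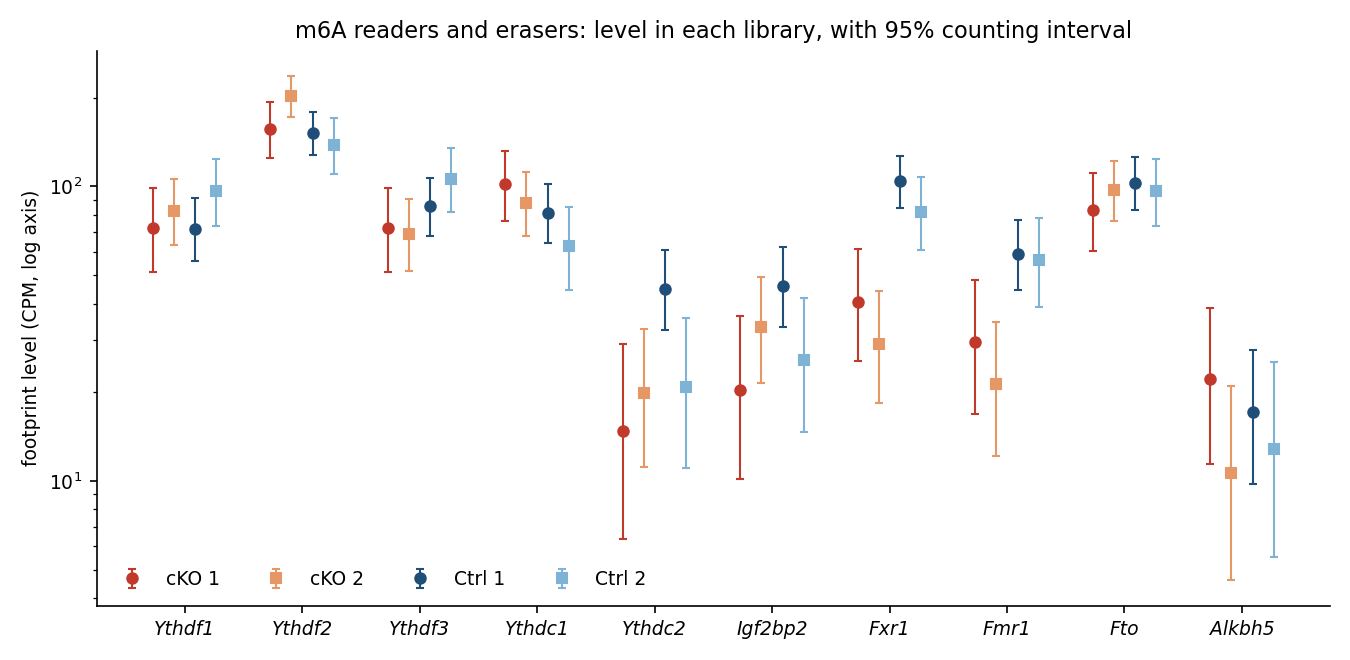
Footprint level in CPM (log axis) of each reader and eraser in the 4 libraries, cKO in red and orange, Ctrl in blue. Points are single libraries and bars are exact 95% binomial intervals, which cover counting error only. For Fxr1 and Fmr1 both cKO points lie clearly below both Ctrl points, whereas Fto and Ythdf1 overlap.

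Fxr1 and Fmr1 of the FMRP family had the 2 most negative log2 changes among the 10. Fxr1 (ENSMUSG00000027680, chromosome 3, 34019943 to 34070322, plus strand) encodes an RNA-binding protein with KH domains that associates with ribosomes. It had 40.6 and 29.3 CPM in cKO 1 and 2, on 22 reads each, against 103.9 and 81.7 CPM in Ctrl 1 and 2, on 97 and 51 reads. Both cKO libraries were low and the groups did not overlap, nor did the exact 95% intervals of cKO 2 (18.3 to 44.3 CPM) and Ctrl 2 (60.8 to 107.4 CPM), whereas that of cKO 1 reached 61.4 CPM. The means were 34.9 ± 8.01 CPM in cKO and 92.8 ± 15.7 CPM in Ctrl (SD, n = 2 each), a cKO level 0.376 times that of Ctrl. Fxr1 fell by 1.39 on the log2 scale (SE 0.32, 95% interval -2.06 to -0.72, limma adjusted p = 0.0445). Only 213 of the 10327 genes had a lower change. Its direction was the same in all 13 alternatives with an adjusted p, from -1.62 to -1.16, but the call was not, with adjusted p between 0.029 and 0.611 in the 12 without a replicate block. Leaving out a library leaves its group with 1, which is assumed to vary like the other group. Without Ctrl 1 the change was -1.22 (adjusted p = 0.262) and without Ctrl 2 it was -1.56 (0.037). It was -1.62 without cKO 1 and -1.16 without cKO 2, where limma called 0 of the 10327 genes, so that a missed call for Fxr1 says nothing there. After centring each library on its median gene the change was -1.18 (adjusted p = 0.0863), with edgeR and TMM -1.19 (0.0624) and with edgeR and library totals -1.44 (0.029). The summed basal and fibroblast markers were also lower in both cKO libraries than in both Ctrl libraries. Both cKO values were the lower ones for 6 of 7 basal and 4 of 8 fibroblast markers (34.1% of all genes). Without Ctrl 1 the median log2 change of the 8 fibroblast markers went from -1.15 to -0.30, where that of all genes was -0.28. That median gives low and abundant markers the same weight. Summed, the fibroblast markers stood at 1636 and 1108 CPM in cKO 1 and 2, still below the 2438 CPM of Ctrl 2. The part of either marker set in the change of Fxr1 was not tested.

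Fmr1 (ENSMUSG00000000838, chromosome X, 68678541 to 68717963, plus strand) encodes FMRP, a repressor of translation whose loss causes fragile X syndrome in humans. Its level was 29.5 and 21.3 CPM in cKO 1 and 2, on 16 reads each, against 58.9 and 56.1 CPM in Ctrl 1 and 2, on 55 and 35 reads. The groups did not overlap, with the 2 Ctrl libraries close together. Fmr1 averaged 25.4 ± 5.83 CPM in cKO and 57.5 ± 2.01 CPM in Ctrl (SD, n = 2 each), a ratio of 0.442. The log2 change was -1.17 ± 0.37 (SE, 95% interval -1.93 to -0.40) and did not pass limma over all genes (adjusted p = 0.148, unadjusted p = 0.00471). It ran from -1.39 to -0.94 with 1 library left out and stood at -0.96 after centring.

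Fxr2, the third gene of the family and not one of the 10, had 40.6 and 29.3 CPM in cKO and 56.8 and 43.3 CPM in Ctrl, with -0.51 ± 0.36 (SE) on the log2 scale (limma adjusted p = 0.547). The reads of the 3 genes together came to 110.7 and 79.8 CPM in cKO, against 219.6 and 181.0 CPM in Ctrl. Within the family, Fxr1 took 36.7% of the reads in each cKO library (22 of 60, exact 95% interval 24.6 to 50.1%) and 47.3% and 45.1% in Ctrl 1 and 2 (40.3 to 54.4% and 35.8 to 54.8%). The share of Fxr2 was 36.7% in each cKO library (24.6 to 50.1%) and 25.9% and 23.9% in Ctrl 1 and 2 (20.0 to 32.4% and 16.4 to 32.8%). Fmr1 took 26.7% in each cKO library and 26.8% and 31.0% in Ctrl 1 and 2. These shares do not depend on how libraries are scaled. The share of Fxr1 was lower in each cKO library than in either Ctrl library and that of Fxr2 was higher. For both genes the exact intervals of every cKO library overlapped those of every Ctrl library, and these differences were not tested.

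The YTHDF readers, which share a C-terminal YTH domain that binds m6A, had a summed level of 300.7 and 353.7 CPM in cKO against 309.6 and 339.7 CPM in Ctrl. Ythdf2 (ENSMUSG00000040025, chromosome 4, 132184912 to 132212303, minus strand), which recruits the CCR4-NOT deadenylase to its targets, was the most abundant member. It had 156.8 and 202.1 CPM in cKO 1 and 2, against 152.1 and 137.8 CPM in Ctrl 1 and 2. The cKO libraries lay above the Ctrl libraries, but cKO 1 and Ctrl 1 were close. The means were 179.5 ± 32.1 CPM in cKO and 144.9 ± 10.1 CPM in Ctrl (SD, n = 2 each), and the log2 change was 0.30 ± 0.24 (SE, 95% interval -0.20 to 0.79, limma adjusted p = 0.605).

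Ythdf3 (chromosome 3, 16183212 to 16217037, plus strand), a paralog that binds many of the same transcripts, had 71.9 and 69.2 CPM in cKO, against 85.7 and 105.7 CPM in Ctrl. Its groups did not overlap either, yet the log2 change of -0.43 ± 0.28 (SE, 95% interval -1.01 to 0.15) did not pass (limma adjusted p = 0.507). Ythdf1 (chromosome 2, 180904377 to 180920949, minus strand), linked in human cell lines to translation of its targets, had 71.9 and 82.5 CPM in cKO and 71.8 and 96.1 CPM in Ctrl. The groups overlapped, and the log2 change was -0.11 ± 0.29 (SE, limma adjusted p = 0.896), but 0.10 after centring and 0.15 with edgeR and TMM.

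The makeup of the YTHDF reads is free of library scaling. Ythdf2 took 52.1% and 57.1% of them in cKO 1 and 2 (of 163 and 266 reads), against 49.1% and 40.6% in Ctrl 1 and 2 (of 289 and 212 reads). The exact 95% intervals were 44.2 to 60.0% and 51.0 to 63.2% in cKO, and 43.2 to 55.1% and 33.9 to 47.5% in Ctrl. Only those of cKO 2 and Ctrl 2 are apart, and those of every other pair of a cKO and a Ctrl library overlap. Ythdf3 took 23.9% and 19.5% in cKO against 27.7% and 31.1% in Ctrl, so the ratio of Ythdf2 to Ythdf3 reads was 2.18 and 2.92 in cKO against 1.77 and 1.30 in Ctrl. These shares and this ratio are given as values, and their differences were not tested. An exact two-sided permutation of 2 against 2 libraries cannot give a p below 0.333.

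**Figure D2:**
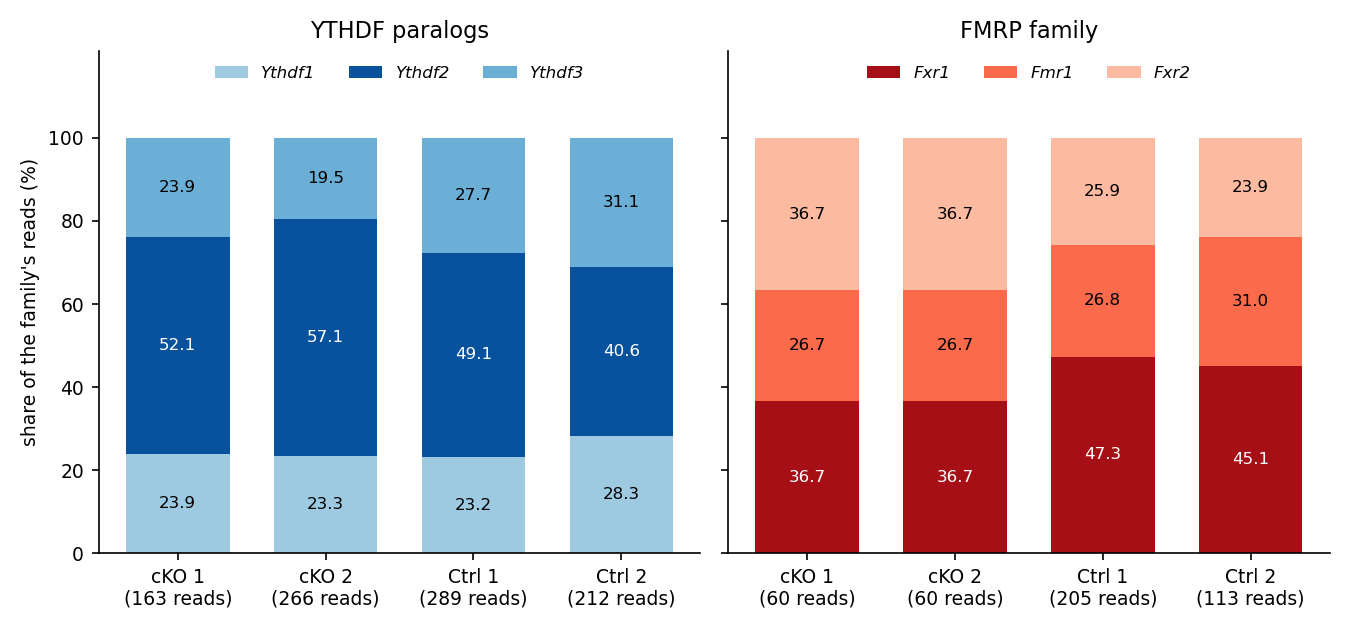
Share of each family's reads (%) taken by each paralog, in every library, with the family's reads in brackets. Ythdf2 takes 52.1 and 57.1% in cKO and 49.1 and 40.6% in Ctrl, and Fxr1 takes 36.7% in both cKO libraries and 47.3 and 45.1% in Ctrl.

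FMRP family and YTHDF reads can also be set against each other within a library. There were 0.368 and 0.226 FMRP family reads for each YTHDF read in cKO 1 and 2, against 0.709 and 0.533 in Ctrl 1 and 2. Fxr1 alone stood at 0.259 and 0.145 reads for each Ythdf2 read in cKO, against 0.683 and 0.593 in Ctrl, and Fmr1 at 0.188 and 0.105 in cKO, against 0.387 and 0.407 in Ctrl. In each of these 3 ratios the cKO libraries were both lower than the Ctrl libraries, and the scaling of libraries does not enter. For the 2 ratios to Ythdf2 this order follows from the levels given above and adds no separate result. Both cKO libraries were the lower ones for Fxr1 and Fmr1 and the higher ones for Ythdf2. The pair Fxr1 and Ythdf2 was chosen after its values were seen, so these ratios are a description.

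The YTHDC readers had log2 changes of opposite sign, and neither passed the test. Ythdc1 (ENSMUSG00000035851, chromosome 5, 86804221 to 86836659, plus strand), the nuclear reader tied to splicing and mRNA export, had 101.5 and 87.8 CPM in cKO 1 and 2, against 81.4 and 62.5 CPM in Ctrl 1 and 2. Both cKO libraries were higher than both Ctrl libraries, but their counting intervals overlapped. It averaged 94.6 ± 9.68 CPM in cKO and 71.9 ± 13.4 CPM in Ctrl (SD, n = 2 each), a log2 change of 0.40 ± 0.28 (SE, 95% interval -0.19 to 0.98, limma adjusted p = 0.546). After centring it stood at 0.61 (adjusted p = 0.444), and with 1 library left out it ran from 0.21 to 0.59.

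Ythdc2 (chromosome 18, 44827746 to 44889724, plus strand) encodes an RNA helicase known for its role in meiosis of germ cells. Its level was 14.8 and 19.9 CPM in cKO 1 and 2, on 8 and 15 reads, against 45.0 and 20.8 CPM in Ctrl 1 and 2, on 42 and 13 reads. Only Ctrl 1 was high, and Ctrl 2 lay just above cKO 2. The log2 change of -0.80 ± 0.48 (SE, 95% interval -1.80 to 0.20, limma adjusted p = 0.46) was -0.26 without Ctrl 1 and -1.34 without Ctrl 2. The summed fibroblast markers were also highest in Ctrl 1, and their part in this value was not tested.

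Igf2bp2 (chromosome 16, 22059009 to 22163299, minus strand), a KH-domain protein that stabilises target mRNAs, followed the same single library. It had 20.3 and 33.2 CPM in cKO 1 and 2, against 46.1 and 25.6 CPM in Ctrl 1 and 2, and the groups overlapped. The log2 change was -0.39 ± 0.43 (SE, 95% interval -1.29 to 0.51, limma adjusted p = 0.724), and 0.02 without Ctrl 1. Its paralogs Igf2bp1 and Igf2bp3, which are not among the 10, had log2 changes of -0.25 and -0.09 with overlapping libraries.

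**Figure D3:**
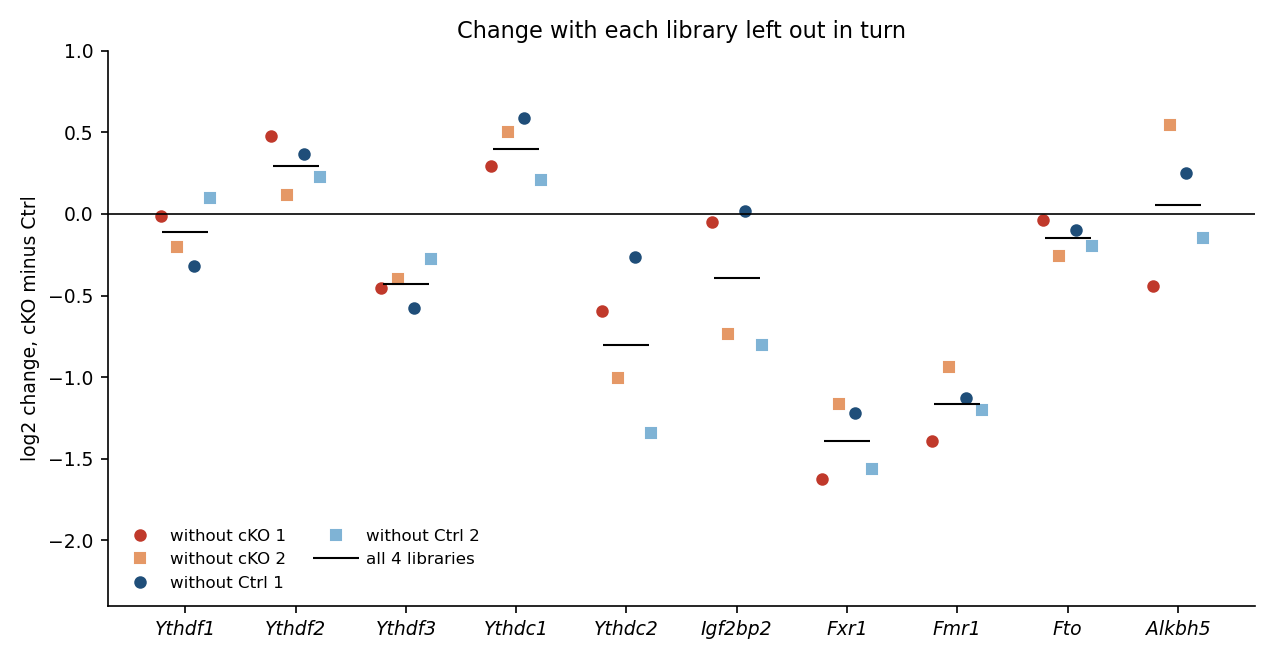
Log2 change (cKO minus Ctrl) of each reader and eraser with 1 library left out in turn, beside the value with all 4 libraries (black dash). Fxr1 stays between -1.62 and -1.16 and Fmr1 between -1.39 and -0.94, while Ythdc2 runs from -1.34 to -0.26 and Alkbh5 crosses 0.

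Both erasers are oxygenases that use iron and 2-oxoglutarate. Fto (ENSMUSG00000055932, chromosome 8, 91313525 to 91668439, plus strand), which also acts on the methylated base next to the cap, had 83.0 and 97.1 CPM in cKO 1 and 2, against 102.8 and 96.1 CPM in Ctrl 1 and 2. The groups overlapped and the spread was small, with means of 90.0 ± 9.95 CPM in cKO and 99.5 ± 4.74 CPM in Ctrl (SD, n = 2 each). The log2 change was -0.15 ± 0.27 (SE, limma adjusted p = 0.84), and 0.06 after centring. Its 95% interval was -0.70 to 0.41.

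Alkbh5 (chromosome 11, 60536381 to 60558512, plus strand), the nuclear eraser, was the member with the lowest mean CPM. It had 12 and 8 reads in cKO 1 and 2 (22.1 and 10.6 CPM), against 16 and 8 reads in Ctrl 1 and 2 (17.1 and 12.8 CPM). The groups overlapped, and the log2 change of 0.05 ± 0.55 (SE, limma adjusted p = 0.975) has a 95% interval of -1.09 to 1.19. That interval includes a 2-fold difference in either direction.

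**Figure D4:**
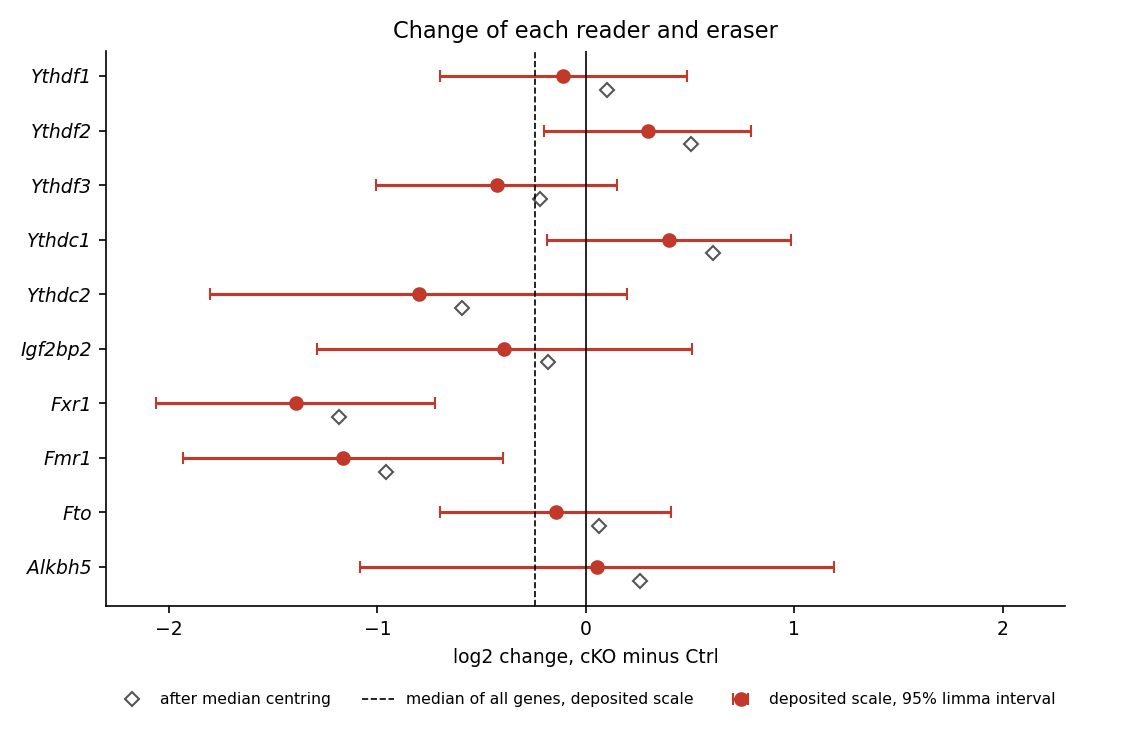
Log2 change (cKO minus Ctrl) of each member with its 95% limma interval on the deposited scale (circles), the value after median centring (diamonds) and the median of all genes (dashed line, -0.245). The intervals of Fxr1 and Fmr1 lie below 0, and those of the other 8 members include 0.

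Levels were compared between genes per kilobase of coding sequence, as CPM per kilobase. Ythdf2 was highest in both groups, at 103.3 ± 18.5 in cKO and 83.4 ± 5.83 in Ctrl (SD, n = 2 each), which is above 89.5% of genes in cKO and 84.8% in Ctrl. Fto came next at 59.8 ± 6.6 CPM per kilobase in cKO and 66.1 ± 3.15 in Ctrl, and in each group its libraries lay apart from those of its neighbours in the order. In Ctrl, Ythdf3, Ythdf1 and Fxr1 followed at 53.5, 47.8 and 45.7 CPM per kilobase, with overlapping libraries between neighbours. In cKO, Ythdf1, Ythdc1 and Ythdf3 followed at 43.9, 42.9 and 39.5 CPM per kilobase, each overlapping the next, and Fxr1 came sixth at 17.2 ± 3.94. Fxr1 thus ranked above 49.8% of genes in cKO and 72.2% in Ctrl, and Fmr1 above 42.4% in cKO and 61.8% in Ctrl. Ythdc2 was lowest in both groups, at 4.0 ± 0.847 CPM per kilobase in cKO and 7.59 ± 3.94 in Ctrl, with its libraries below those of every neighbour.

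Letters of a single form of the m6A consensus were counted in the coding sequence, as a feature the choice of genes did not use. Other forms of the consensus and the untranslated regions were not searched, so a gene without a match may still hold consensus sites. The letters GGACT, read on the coding strand, occurred at least once in 78.3% of the 10320 genes with a coding sequence, with a median of 1.08 per kilobase. Fxr1 holds 2 such matches (0.985 per kilobase, above 46.1% of genes), Fmr1 and Ythdc1 none, and Fxr2 5. Ythdf2 and Alkbh5 hold 2 each, Igf2bp2 and Ythdc2 3 each, and Ythdf1, Ythdf3 and Fto 1 each. The 2 matches of Fxr1 are shown because it is the member called lower. They start at bases 1616 and 1645 of its 2031-base coding sequence, with the match in capitals.
Fxr1, first match: cgtagacggaGGACTgatgaagatg
Fxr1, second match: tctgatggatGGACTgactgaatct

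A match is not evidence that the base is methylated, and the 2 members with the lowest changes differ in it, with 2 matches in Fxr1 and 0 in Fmr1.

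Other genes of the pathway were read from the same fit in lists set by the known roles of the proteins. None of 11 other proposed m6A-binding proteins passed (4 at an unadjusted p under 0.05, where 14.3% of all genes were), and edgeR with TMM called 0 genes of these lists. The median log2 change of the binding proteins was -0.47, and in 8 of 11 both cKO values were the lower ones (34.1% of all genes). The most abundant were Hnrnpa2b1, a nuclear ribonucleoprotein, at 381.7 ± 13.2 CPM in cKO and 522.7 ± 33.4 CPM in Ctrl, and Snd1, a nuclease-domain protein, at 255.8 ± 6.91 CPM in cKO and 387.5 ± 51.8 CPM in Ctrl (SD, n = 2 each). Their log2 changes were -0.45 and -0.59 (limma adjusted p = 0.318 and 0.196).

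Of the genes of m6A and related methyltransferases, 12 were measured, with the targeted Mettl14 among them, and none passed. Mettl14 was 1 of the 4 at an unadjusted limma p under 0.05 (14.3% of all genes). Both cKO values were the lower ones for 3 genes and the higher ones for 2 (34.1% and 11.1% of all genes). The median log2 change was 0.17, with single genes from -1.85 to 0.81. That median was -0.075 without Ctrl 1, 0.015 without Ctrl 2 and 0.0028 without cKO 2, so its sign turned when Ctrl 1 was left out. Virma, the scaffold of the writer complex, had 188.1 ± 31.2 CPM in cKO and 175.1 ± 3.81 CPM in Ctrl, and Zc3h13, a nuclear anchor of the complex, had 69.1 ± 30.1 CPM in cKO and 84.0 ± 10.0 CPM in Ctrl (SD, n = 2 each). Among 17 measured genes of the CCR4-NOT deadenylase and other decay partners of the readers, none passed (0 at an unadjusted p under 0.05), and the median was -0.36. Upf1, the helicase of nonsense-mediated decay, had a log2 change of -0.27 ± 0.21 (SE), and Tnks1bp1, a protein bound to CCR4-NOT, of 0.24 ± 0.22.

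Of 9 measured partners of YTHDC1 and mRNA export, none passed (2 at an unadjusted p under 0.05). Alyref, an export adaptor, had 94.1 and 86.4 CPM in cKO 1 and 2, against 165.0 and 206.7 CPM in Ctrl 1 and 2, or -1.03 ± 0.25 (SE) on the log2 scale (limma adjusted p = 0.0532). Khdrbs1, an RNA-binding splicing regulator, stood at -0.71 ± 0.23 (adjusted p = 0.153). Among 11 FMRP family partners, none passed (1 at an unadjusted p under 0.05), and their median was -0.02, which was 0.053 without cKO 2 and ran down to -0.24 without Ctrl 2. Caprin1, a partner of FMRP in RNA granules, had 237.9 ± 26.2 CPM in cKO and 366.3 ± 16.7 CPM in Ctrl (SD, n = 2 each, log2 change -0.62, adjusted p = 0.172), and Cyfip1, which links FMRP to the cap-binding protein, had a log2 change of -0.36 ± 0.22. The 6 other AlkB dioxygenases measured were low and none passed (0 at an unadjusted p under 0.05). The most abundant were Alkbh8, a tRNA modifier, with log2 change 0.59 ± 0.62, and Alkbh3, a DNA and RNA repair enzyme, with -0.28 ± 0.64.

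**Figure D5:**
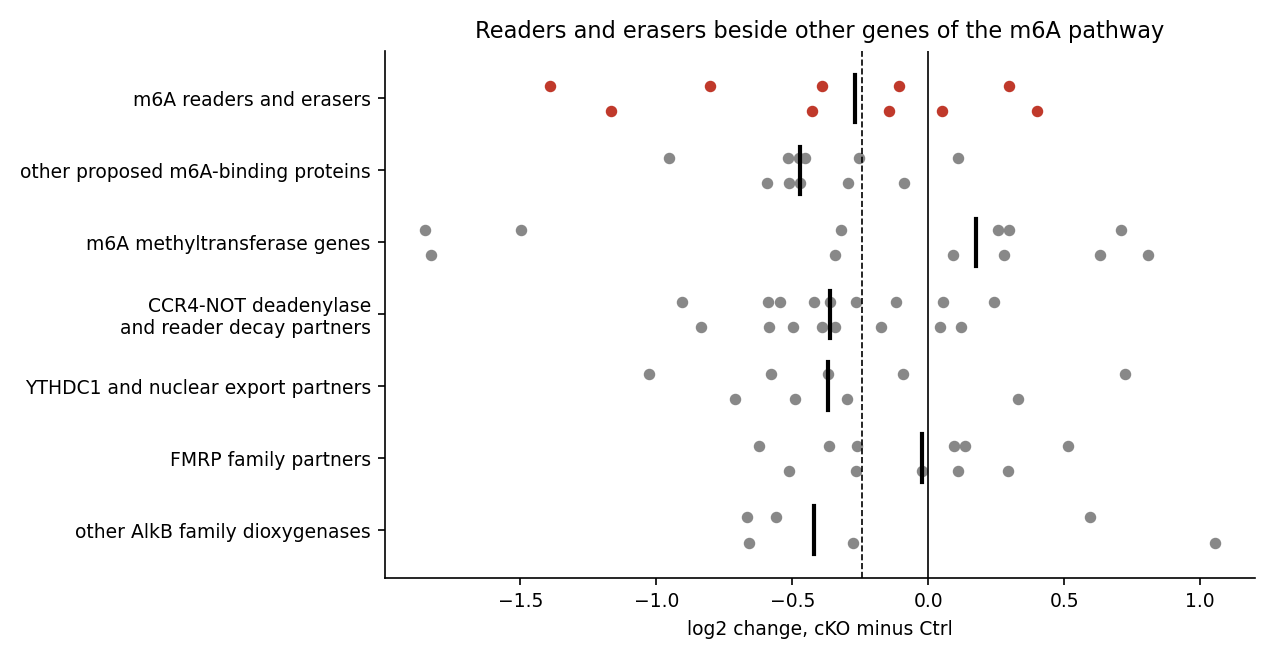
Log2 change (cKO minus Ctrl) of each gene of the reader and eraser list (red) and of 6 other lists of the m6A pathway (grey), with the median of each list (black bar) and of all genes (dashed line). Fxr1 and Fmr1 are the 2 lowest red points, and the median of the red points lies at -0.27, close to that of all genes.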

How the data were processed

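Ribosome profiling libraries of 2 cKO and 2 Ctrl samples were analysed. The deposited values are CPM per gene and library, made by the authors over the 10327 listed genes. Per the submitters' processing notes, reads went through fastp, HISAT2 and HTSeq on build GRCm38, while versions, strand setting and the treatment of reads with several matches are not stated there or in the labels. Per the labels' protocols, cells were lysed with cycloheximide, which can shift ribosomes, and fragments of 25 to 35 nt were selected. Control columns headed WT were read as Ctrl 1 and Ctrl 2 because the labels hold no other group. Every value was a whole multiple of that of 1 read (tolerance 1e-06 reads, 100% of values), so reads were recovered, and 1 read is worth 1.84 CPM in cKO 1, 1.33 in cKO 2, 1.07 in Ctrl 1 and 1.60 in Ctrl 2. On the recovered reads edgeR with TMM called 176 genes. All genes listed have at least 1 read in every library.

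Chi-square per degree of freedom between replicate libraries was 2.73 for cKO and 3.40 for Ctrl, above the 1 of pure counting. The main test was limma 3.58.1 (R 4.3.3) on log2(CPM + 1) with trended variances and group as the only term. A minimum of 1 CPM in 2 or more libraries removed 0 genes and 0 members. P-values were adjusted by Benjamini-Hochberg over all genes, and the pseudocount shrinks log2 changes of low genes. SE and 95% intervals are limma's and draw on the trend over genes. Intervals of CPM and of shares are exact Clopper-Pearson intervals, which cover counting error only. Alternatives used edgeR 4.0.16, DESeq2 1.42.0, other pseudocounts and filters, median centring, a replicate block and each library left out. Simulated reads with known answers (3 runs, median 9935 genes, 200 altered per run) gave a recovery of 16.3% at 2-fold and 75.9% at 4-fold, with 2.68% false calls. The simulation used the same extra spread for every gene, set in advance and not fitted to these libraries, and no general shift between the groups. Genes without reads in any simulated library were dropped before recovery was counted. It therefore gives neither the recovery nor the rate of false calls in these libraries.

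The members and the lists were chosen with earlier results of these data known. Beyond the members and Mettl14, the text names the called genes of a list (at most 2 rises and 2 falls, by size) or, for a list with no call, the 2 with the highest mean CPM. Fxr2, Igf2bp1, Igf2bp3 and the read ratios lie outside that rule and were chosen with their values in view. All identifiers matched a symbol of GENCODE M21. The longest coding sequence of each gene was used for lengths and sequence searches.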

Additional observations from a re-analysis of the deposited data

How the results depend on the processing

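Over all genes limma called 69 (38 higher, 31 lower). The count was 113 after median centring (105 higher, 8 lower), 176 with edgeR and TMM (163 higher, 13 lower), 118 with edgeR and library totals, 23 with a filter of 10 CPM in at least 2 libraries, and ran from 0 to 139 with 1 library left out, with 0 without cKO 1 and 0 without cKO 2. The 1 called member, Fxr1, was not called under that filter (adjusted p = 0.0635), after centring, with edgeR and TMM or with DESeq2 without independent filtering (adjusted p = 0.611), so that 0 members were called there, and 0 to 1 with a library left out. DESeq2 with its filter gave Fxr1 no adjusted p. That unfiltered DESeq2 fit was chosen after seeing the data. A replicate block in the limma fit gave 839 called genes (257 higher, 582 lower). Among them were 2 members, Fxr1 (adjusted p = 0.000314) and Fmr1 (0.0169). They also held 6 of the 64 measured genes of the other m6A lists, with Mettl14 (0.0178) as 1 of the 6. That count stands beside 839 of all 10327 genes called with the block. Equal numbers deviated together with a correlation of 0.195 over all genes and 0.397 over the 5164 at or above the median CPM, where Fxr1 and Fmr1 lie, but no label says that a number pairs samples. The other m6A lists had 0 called genes, and 1 with edgeR and library totals. Signs turned only for members that were not called. Ythdf1 stood at 0.10 after centring, 0.15 with edgeR and TMM, 0.13 with DESeq2 without filtering, and between -0.32 (without Ctrl 1) and 0.10 (without Ctrl 2) with a library left out. Fto stood at 0.063 after centring, 0.11 with edgeR and TMM and 0.10 with DESeq2, filtered or not. With a library left out Igf2bp2 ran from -0.80 (without Ctrl 2) to 0.020 (without Ctrl 1), and Alkbh5 from -0.44 (without cKO 1) to 0.55 (without cKO 2), with -0.14 without Ctrl 2. Fxr1, Fmr1, Ythdf2, Ythdf3, Ythdc1, Ythdc2 and Mettl14 kept their sign in every alternative run. Depth limits low genes, with 4145 genes in cKO 1 and 2256 in Ctrl 1 under 10 reads.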
